A study of Homo sapiens with 18 samples.

Results

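Gene expression was compared between U937 cells given decitabine, with panobinostat added at the last decitabine pulse, and U937 cells given decitabine alone. The aim was to see what the second drug added to the first. The comparison used 6 of the 18 arrays of the series, the 3 arrays of decitabine plus panobinostat and the 3 of decitabine, chosen by their titles, and all 16098 of 48226 probe sets that map to 1 gene symbol. Where a gene had several such probe sets (779 genes), its brightest one by the mean over all 18 arrays stood for it, which left 14884 genes. U937 is an established human cell line with monocytic features, derived from a histiocytic lymphoma. It was cultured in RPMI medium with fetal calf serum, and RNA was hybridized to Affymetrix Human Gene 2.0 ST arrays.

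The cells of both groups received decitabine (5-aza-2'-deoxycytidine) in 3 pulses of 24 h each. In the group with panobinostat, that drug was present for 24 h, added together with the last decitabine pulse. The labels write 50 for decitabine and 8 for panobinostat with no unit. The other arrays used here were 3 of untreated control, 3 of panobinostat alone and 3 of decitabine plus valproic acid, in which valproic acid (1 in the labels, again with no unit) took the place of panobinostat. Valproic acid alone, with 3 arrays, entered only the estimate of the spread. Nothing in the labels ties the 3 arrays of a group to separate cultures, and the p-values therefore reflect how much arrays of a group differ, which can be technical in part. All groups are 1 cell line.

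Decitabine is a cytosine analogue that is built into DNA and traps DNA methyltransferases there, so that methylation is lost as cells divide. Panobinostat is a hydroxamate that inhibits the zinc-dependent histone deacetylases, enzymes that remove acetyl groups from histones and other proteins; acetylated chromatin is generally more open to transcription. Both drug classes have been studied in myeloid neoplasms, where their combination is known for raising genes that are silent in the untreated cells, among them interferon response genes.

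Panobinostat moved 15.6% of the genes measured on top of decitabine. Of 14884 genes, 2317 passed a Benjamini-Hochberg adjusted p of 0.05 in limma, and these are said below to be called. They were split into 1140 higher (7.66% of genes) and 1177 lower (7.91%). At a change of at least 2-fold there were 586 (3.94%), of which 356 were higher (2.39%) and 230 lower (1.55%). At 4-fold or more 45 rose and 4 fell. The median called rise was 0.79 on the log2 scale and the median called fall -0.69, against a median standard error (SE) of 0.16. The 3 arrays of each group did not overlap in 2272 of the called genes. Over all genes 4476 (30.1%) had no overlap, whether called or not. The calls of 1206 genes (618 higher, 588 lower) held in each of the 6 fits without 1 array. The split into rises and falls depended on the scaling. With each array centred on its own median over the 14884 genes, 857 genes were higher and 1776 lower. That is a share of 32.5% higher against 49.2%, and the median change of all genes moved from -0.02 to -0.12. Changes below are on the deposited scale, and small rises are to be read against that shift.

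The array medians over all 48226 probe sets lay between 3.81 and 3.87 on the log2 scale, and single values between 2.29 and 14.57. In a principal component analysis of the 6 arrays the first component held 55.4% of the variance and separated the groups. The second, with 12.7%, set replicate 1 of decitabine plus panobinostat (23.4) apart from replicates 2 and 3 (-13.5 and -11.1), and without that array 1794 genes were called. Of 18 monocytic markers, 6 were on a named probe set (SPI1, LYZ, CD68, CD4, CD86 and MPO). Their mean levels over the 6 arrays of the comparison ran from 6.63 to 11.83. The defining markers of B, T, erythroid, megakaryocytic, epithelial, fibroblast and endothelial cells that were measured had means of 3.25 to 4.54 over the same arrays. The arrays measured bulk RNA, in which fewer cells of a type and less RNA per cell cannot be told apart.

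The largest rises were in genes of varied lineages, most of which stood near the bottom of the scale under decitabine alone. DHRS2, a short-chain dehydrogenase (probe set 16782385, chromosome 14), was at 4.43, 3.86 and 4.06 on the decitabine arrays and at 8.38, 7.98 and 8.10 with panobinostat. Every panobinostat array lay far above every decitabine array, and the rise was 4.04 (SE 0.43), or 16.4-fold, with an adjusted p of 2.68e-05 in limma. ENPP2, the secreted lysophospholipase autotaxin, rose from 4.22, 3.89 and 3.56 to 7.92, 7.65 and 7.85, which is 15.1-fold (log2 change 3.92, SE 0.42). The tight junction scaffold TJP3 rose from 3.87, 4.13 and 4.26 to 7.01, 7.09 and 7.70, or 9.08-fold. Neither gene had overlapping groups.

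CD22, a sialic acid-binding lectin of B cells, was at 5.60, 5.94 and 5.21 with decitabine and at 8.52, 8.52 and 8.97 with both drugs (3.08, SE 0.26). CCR7, a chemokine receptor that guides leukocytes to lymph nodes, stood at 3.56, 3.57 and 3.40 and rose to 6.87, 6.08 and 6.28. TREM1, a receptor that amplifies inflammatory signals in myeloid cells, went from 4.63, 4.49 and 4.13 to 7.02, 7.01 and 7.0. The 3 panobinostat arrays of TREM1 lay almost on one level, and its rise was 2.60 (SE 0.18; adjusted p 1.78e-06 in limma). TRAF1, an adaptor of tumour necrosis factor receptors, rose by 2.86 (SE 0.21) and the complement component C3 by 2.63 (SE 0.29). The rise of ADAM28, a membrane metalloprotease, was 2.88 (SE 0.21). The remaining members of the 15 largest rises were the interferon-induced chemokine CXCL11 (2.88), the liver transcription factor CREB3L3 (2.86), the melanosome protein PMEL (2.85), the oligodendrocyte marker BCAS1 (2.63), the secreted carbonic anhydrase CA6 (2.59) and RGS9, a regulator of G protein signalling in photoreceptors (2.55). The calls of all 15 held whichever array was left out.

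**Figure D1:**
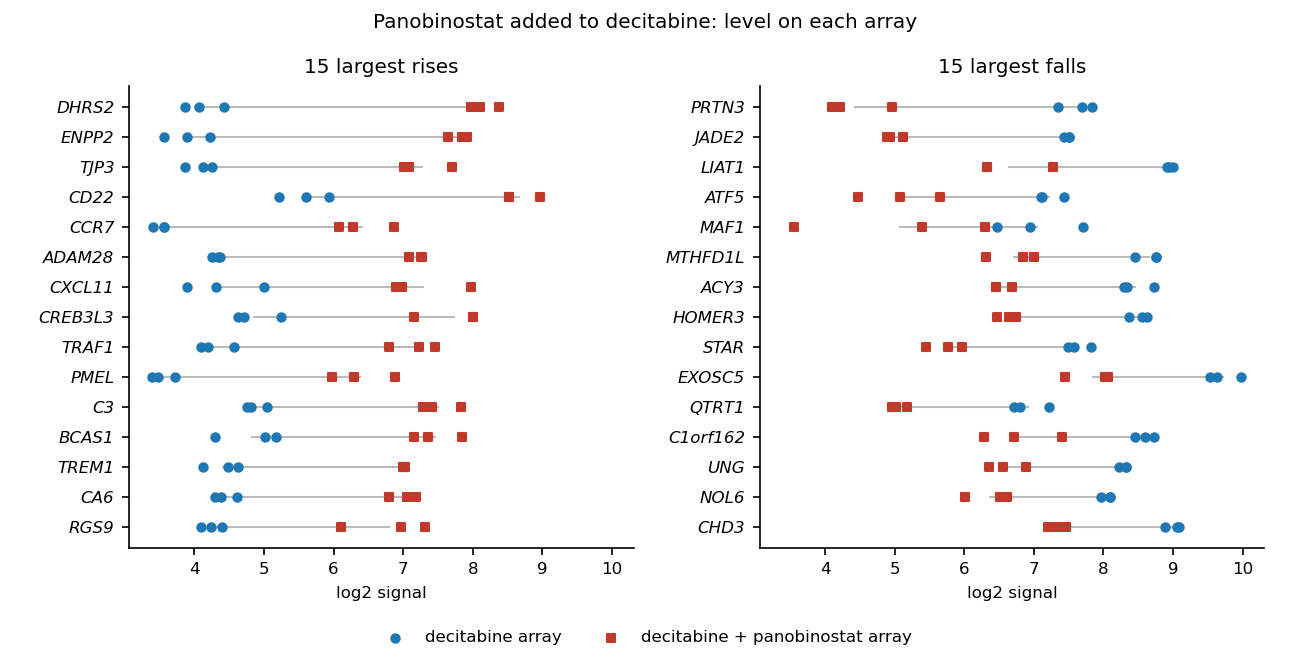
Log2 signal (horizontal axis) of the 15 protein-coding genes with the largest called rises and the 15 with the largest called falls, with 1 point for each of the 3 decitabine arrays (circles) and 3 decitabine plus panobinostat arrays (squares); grey lines join the group means. The groups do not overlap for any of these genes, which the rule for naming them required; DHRS2 runs from 3.86 at its lowest decitabine array to 8.38, and for MAF1 the lowest decitabine array (6.47) lies close to the highest panobinostat array (6.30).

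Fewer genes fell far, and the leading falls began well above the bottom of the scale. PRTN3, proteinase 3 of the azurophil granules (probe set 16856284, chromosome 19), fell most, from 7.69, 7.34 and 7.83 to 4.22, 4.96 and 4.10. That is a change of -3.19 (SE 0.28), or 9.14-fold lower, with an adjusted p of 3.6e-06 in limma; the untreated control, whose arrays are not in this comparison, averaged 4.58. JADE2, a PHD finger protein of a histone acetyltransferase complex, was at 7.43, 7.51 and 7.51 with decitabine and at 4.94, 5.12 and 4.89 with both drugs (-2.50, SE 0.20). LIAT1 fell from 9.0, 8.94 and 8.92 to 7.27, 6.33 and 6.32, with replicate 1 the highest of its group. The stress-response transcription factor ATF5 fell from 7.10, 7.12 and 7.44 to 4.47, 5.07 and 5.65 (-2.16, SE 0.28). These 4 were the only called falls of 4-fold or more.

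Several of the next falls were enzymes of nucleic acids and of metabolism. MTHFD1L, a mitochondrial enzyme of folate metabolism, changed by -1.94 (SE 0.20), QTRT1, which puts queuine into tRNA, by -1.86 (SE 0.32), EXOSC5, a subunit of the RNA exosome, by -1.86 (SE 0.22) and UNG, the uracil-DNA glycosylase, by -1.69 (SE 0.27). NOL6, a nucleolar protein of ribosome assembly, changed by -1.68 (SE 0.20) and CHD3, a chromatin remodeller of the NuRD complex, by -1.68 (SE 0.17). The aminoacylase ACY3 (-1.92), the mitochondrial cholesterol carrier STAR (-1.90), the synaptic scaffold HOMER3 (-1.90) and C1orf162 (-1.79) completed the set with MAF1, a repressor of RNA polymerase III. MAF1 had the widest spread of them: its panobinostat arrays stood at 3.56, 6.30 and 5.39 against 6.47, 6.94 and 7.71, and its change of -1.95 had an SE of 0.61 and an adjusted p of 0.0398. It was not called without decitabine plus panobinostat replicate 1 (-1.19) or replicate 3 (-2.11), nor without decitabine replicate 2 (-2.0) or replicate 3 (-1.62). The other 14 falls kept their calls whichever array was left out.

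Among genes that do not code for proteins, NBEAP1, a transcribed pseudogene, rose from 8.66, 8.79 and 8.33 to 10.56, 10.64 and 10.93 (2.12, SE 0.31). LINC00624 rose by 2.10 (SE 0.39) and the probe set of MIR4525 by 2.05 (SE 0.17). The largest falls were those of PTPRN2-AS1 (-1.76, SE 0.23), MIR544B (-1.74, SE 0.43) and EPB41L4A-AS1 (-1.71, SE 0.29). All 6 calls held whichever array was left out. The array's probe sets for microRNA genes do not tell a precursor from a host transcript, and whether strand separates the antisense RNAs from their partners is not given in the sources used here.

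Interferon response genes rose more broadly than any other list of 10 or more measured members. Type I interferon is sensed by a receptor at the cell surface, and antiviral genes are then switched on through a DNA motif in their promoters, the interferon-stimulated response element. Of 32 measured members, 21 were called higher and 2 lower, with a median change of 0.85, against 7.66% higher, 7.91% lower and a median of -0.02 over all genes. Of the 21 rises 14 held whichever array was left out, and 16 to 21 were called in those fits. The members include sensors of viral RNA, signalling factors, effectors and a chemokine. The same list had 7 members higher and 1 lower with panobinostat in cells without decitabine, where 3.92% of all genes were higher and 3.47% lower. The difference between the changes with and without decitabine, tested directly below, was called for 4 of the 32. Calls over decitabine in all lists below are to be read against the 7.66% higher and 7.91% lower over all genes. Several lists lie near these shares. Among genes with the highest control level 21.4% were lower, which matters for lists of bright genes.

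The promoters of 3 members are shown because their windows hold a core of that element, searched on both strands as GAAA, any pair of bases, and GAAA again. In each, the 250 bases before the RefSeq gene start (build GRCh38.p14) run 5′ to 3′ along the gene, and capitals mark every match.
IFI44L: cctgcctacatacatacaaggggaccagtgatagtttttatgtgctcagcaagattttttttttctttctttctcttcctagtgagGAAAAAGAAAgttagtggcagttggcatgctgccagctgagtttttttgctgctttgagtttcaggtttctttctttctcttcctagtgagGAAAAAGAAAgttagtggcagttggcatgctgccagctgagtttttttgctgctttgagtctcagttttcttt
IFIH1: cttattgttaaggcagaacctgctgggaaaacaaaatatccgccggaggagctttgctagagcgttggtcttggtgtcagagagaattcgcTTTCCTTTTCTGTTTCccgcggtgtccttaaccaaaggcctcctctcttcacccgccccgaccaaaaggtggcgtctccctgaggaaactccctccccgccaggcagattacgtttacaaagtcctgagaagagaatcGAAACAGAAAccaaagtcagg
IFIT3: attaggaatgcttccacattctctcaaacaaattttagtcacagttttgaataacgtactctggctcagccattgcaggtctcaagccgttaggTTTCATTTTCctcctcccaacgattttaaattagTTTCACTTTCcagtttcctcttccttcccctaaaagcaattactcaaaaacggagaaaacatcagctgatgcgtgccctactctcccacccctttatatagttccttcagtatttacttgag
The windows are chr1:78620198-78620447 (plus strand), chr2:162318685-162318934 (minus strand) and chr10:89327747-89327996 (plus strand). Matches begin 164 and 73 bases before the start of IFI44L, 159, 153 and 21 before that of IFIH1, where the first and second share bases, and 156 and 122 before that of IFIT3. None shares a base with a match of the other motifs searched (the GC box GGGCGG, the CCAAT box and the E-box CACGTG). The motif is in 2.89% of the windows of all measured protein-coding genes and in 3.65% of the table's 27305 windows (300 bases each, 250 before and 50 after the start). It was added after the calls of this list had been seen, and the members shown were chosen after their values were seen. Only 16 of the 21 called genes had a window, under the 80% needed for a share of the list, so none is given. Members without a match among the called ones were CXCL11, IRF9, RIGI, RSAD2, SAMD9L and XAF1, while IFIT5, IFITM3, DDX60, BST2 and CXCL10, which were not called, and IFITM1, which was called lower, hold it.

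The chemokine CXCL11 rose most in the list. Its decitabine arrays stood at 5.00, 4.31 and 3.90 and its panobinostat arrays at 7.98, 6.99 and 6.89, a rise of 2.88 (SE 0.31; adjusted p 2.68e-05 in limma). Replicate 1 was the highest in both groups and the groups were far apart. IFI44L, an antiviral effector, went from 4.97, 4.19 and 4.93 to 6.97, 5.93 and 7.10 (1.97, SE 0.26), with replicate 2 the lowest of both groups. SLFN5, a Schlafen family member, rose from 6.90, 6.41 and 6.53 to 8.91, 8.76 and 8.83 (2.22, SE 0.31). IRF9, a DNA-binding factor of the interferon response, rose from 5.83, 5.61 and 6.35 to 8.03, 7.24 and 7.35 (1.61, SE 0.30). The RNA sensor IFIH1 (MDA5) was at 5.69, 6.07 and 6.26 and reached 7.30, 7.13 and 7.16 (1.19, SE 0.20), and IFIT3, which binds foreign RNA with its relatives, went from 6.66, 6.93 and 6.99 to 8.17, 8.09 and 8.35 (1.34, SE 0.15). None of these 6 genes had overlapping groups, and each kept its call whichever array was left out.

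The interferon list did not move as one. The membrane proteins IFITM1 and IFITM2, which block virus entry and were named here after their values were seen, were lower, by changes of -0.69 (SE 0.19) and -0.88 (SE 0.25). The IFITM2 arrays overlapped, at 10.15, 10.34 and 11.03 with decitabine and 9.39, 10.22 and 9.26 with both drugs. IFITM2 was not called without decitabine plus panobinostat replicate 1 (-0.76), its replicate 3 (-0.70) or decitabine replicate 3 (-0.62), and IFITM1 was not called without decitabine plus panobinostat replicate 2 (-0.64) or decitabine replicate 3 (-0.62). The related IFITM3 had a change of -0.41, CXCL10, a chemokine of the same receptor as CXCL11, of -0.04, and USP18, a brake on interferon signalling, of -0.08, none of which passed. These near-identical IFITM genes may share probes.

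**Figure D2:**
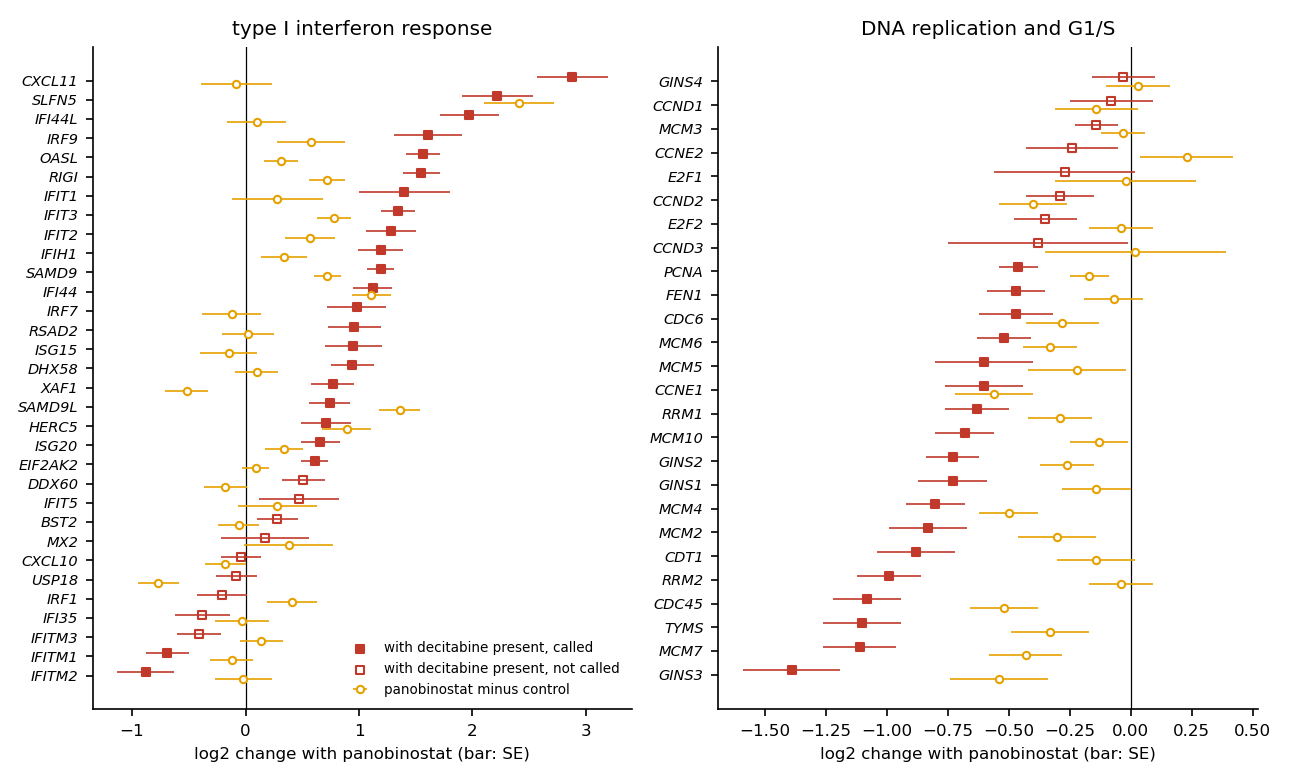
Log2 change with panobinostat for every measured gene of the interferon response list (32 genes) and the DNA replication list (26 genes), with decitabine present (squares, filled where called) and without it (open circles, panobinostat minus control); bars are SE. Squares lie to the right of 0 for 25 interferon genes, up to 2.88 for CXCL11, and to the left of 0 for all 26 replication genes, down to -1.39 for GINS3.

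Genes of DNA replication fell together. The MCM proteins, CDC45 and the GINS subunits form the helicase that opens DNA at origins, and thymidylate synthase and ribonucleotide reductase supply the nucleotides. All 26 measured members had a negative change, 18 were called lower and none higher, and the median was -0.60. In the fits that leave out 1 array 14 to 17 were called lower, and 14 of the 18 held in every such fit. GINS3 was at 7.82, 7.84 and 7.76 with decitabine and at 6.06, 6.44 and 6.74 with both drugs (-1.39, SE 0.20; adjusted p 0.000189 in limma). MCM7 went from 10.58, 10.79 and 10.68 to 9.34, 9.79 and 9.59 (-1.11, SE 0.15). TYMS, the thymidylate synthase, was among the brightest probe sets and went from a range of 11.93 to 12.01 with decitabine to 10.94, 10.83 and 10.87 (-1.10, SE 0.16), and CDC45 fell from 8.56, 8.65 and 8.68 to 7.40, 7.36 and 7.88 (-1.08, SE 0.14). None of the 4 had overlapping groups. The cyclins D1, D2 and D3 and the factors E2F1 and E2F2 did not pass, with changes of -0.08 for CCND1, -0.29 for CCND2, -0.38 for CCND3, -0.27 for E2F1 and -0.35 for E2F2. With panobinostat in cells without decitabine 3 members were lower, against 3.47% of all genes, and the median was -0.19. The difference between the changes with and without decitabine was called for 1 of the 26 members, as more negative with decitabine.

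The fall took in repair genes of the same phase and fewer genes of mitosis. Of 11 genes of homologous recombination and the Fanconi pathway, which mend broken and crosslinked DNA, 8 were lower and none higher, with a median of -0.55 and all 11 changes negative. XRCC3 changed by -0.97 (SE 0.22), RAD54L by -0.94 (SE 0.17), BRIP1 by -0.70 (SE 0.10) and BARD1 by -0.64 (SE 0.18). BARD1 was not called without decitabine plus panobinostat replicate 2 (-0.43) or decitabine replicate 2 (-0.56), and without decitabine replicate 2 the list had 5 lower. Of 24 genes of G2 and mitosis 7 were lower, with a median of -0.13. FOXM1, a transcription factor of that program, fell from 9.88, 9.91 and 10.03 to 9.25, 9.17 and 8.40 (-1.0, SE 0.18), the spindle checkpoint protein MAD2L1 by 0.75, and the kinases AURKA by 0.71 and PLK1 by 0.51. AURKA was not called without decitabine plus panobinostat replicate 2 (-0.53). The proliferation marker MKI67 (-0.04), topoisomerase TOP2A (0.16) and cyclin CCNB1 (-0.06) did not pass.

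Many ribosome biogenesis genes are known targets of the transcription factor MYC. They share a list here with MYC, its partner MAX, the MYC competitors MXD1, MXD4 and MXI1, and the MYC targets TFAP4 and ODC1. Of 20 measured members of the list 13 were called lower and 1 higher, with a median of -0.62; 7 of the 13 held whichever array was left out, and 8 were lower without decitabine plus panobinostat replicate 2. RRS1, an assembly factor of the large subunit, went from 7.43, 7.30 and 7.35 to 6.01, 5.93 and 6.14 (-1.33, SE 0.23). NOP16 was at 7.05, 7.01 and 8.05 and fell to 6.08, 6.03 and 5.90 (-1.37, SE 0.33), and it was not called without decitabine replicate 3, its highest array (-1.03). BOP1 fell from 7.44, 7.53 and 7.58 to 6.93, 6.33 and 5.73 (-1.18, SE 0.26), but the mean of its 2 probe sets changed by only -0.40 and was not called. Nucleolin, NCL, fell from 9.37, 9.21 and 8.82 to 8.31, 7.98 and 7.87 (-1.08, SE 0.29) and was not called without any of decitabine plus panobinostat replicate 2 (-1.04) or 3 (-0.99) and decitabine replicate 1 (-0.96) or 2 (-1.04). The called rise was MXD4 (0.72), a repressor that competes with MYC for MAX, named after its value was seen; its arrays overlapped, and it was not called without decitabine plus panobinostat replicate 1 (0.58) or 3 (0.64) or decitabine replicate 2 or 3 (0.63 each). MYC itself was at 9.77, 9.80 and 9.55 with decitabine and at 9.19, 9.32 and 8.76 with both drugs, a change of -0.62 (SE 0.22) that did not pass (adjusted p 0.0695 in limma), though it passed with centred arrays (-0.72) and with the intensity trend (-0.62). Of 15 cytosolic ribosomal proteins 3 were lower, RPL14 (-1.25), RPL29 (-1.07) and RPL37A (-0.67). RPL14 was lost without decitabine plus panobinostat replicate 3 (-1.14) or decitabine replicate 2 (-1.16), RPL37A without decitabine plus panobinostat replicate 1 (-0.61) or 2 (-0.60) or decitabine replicate 2 (-0.41), and without that last array 1 of the 3 was called.

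The E-box CACGTG, the sequence that MYC and MAX bind, reads the same on both strands, and it was searched in the same RefSeq windows of 300 bases. It was in 9.1% of the 9707 measured protein-coding genes with a window and in 14.2% of the 949 called lower. No test was made of these shares. In the MYC and ribosome biogenesis list, ODC1, NCL, NOP16, NIP7, HEATR1 and LYAR were called lower and had a window without the E-box. FBL and WDR43, also called lower, held it 6 and 3 bases after the start, and MXD4, the called rise, held it too. Not every called member of the list had a window. ODC1, NIP7, HEATR1, LYAR, FBL and WDR43 were named after their values were seen. Of the protein-coding genes called higher, and of those called lower by at least 2-fold, 79.9% had a window, under the 80% needed, so no share is given for either. The windows of the genes called lower held a median of 27 CG dinucleotides against 23 for all, and the GC box was in 69.7% against 62.9%, and the CCAAT box in 38.0% against 36.2%. The 250 bases before the start are shown for 2 of the 15 largest falls whose window holds the E-box, with that motif in capitals.
MTHFD1L: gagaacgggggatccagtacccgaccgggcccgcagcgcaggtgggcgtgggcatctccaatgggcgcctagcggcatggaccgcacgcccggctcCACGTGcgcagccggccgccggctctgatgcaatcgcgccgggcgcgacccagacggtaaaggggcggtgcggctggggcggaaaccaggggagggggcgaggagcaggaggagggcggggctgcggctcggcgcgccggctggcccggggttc
QTRT1: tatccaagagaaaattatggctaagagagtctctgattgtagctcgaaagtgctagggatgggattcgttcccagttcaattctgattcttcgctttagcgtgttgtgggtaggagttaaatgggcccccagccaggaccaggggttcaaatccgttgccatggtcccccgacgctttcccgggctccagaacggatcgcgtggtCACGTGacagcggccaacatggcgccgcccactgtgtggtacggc
They are chr6:150866236-150866485 and chr19:10701189-10701438 in GRCh38.p14, both on the plus strand, and the match begins 154 bases before the start of MTHFD1L and 45 before that of QTRT1. Neither match shares a base with the other motifs searched.

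**Figure D3:**
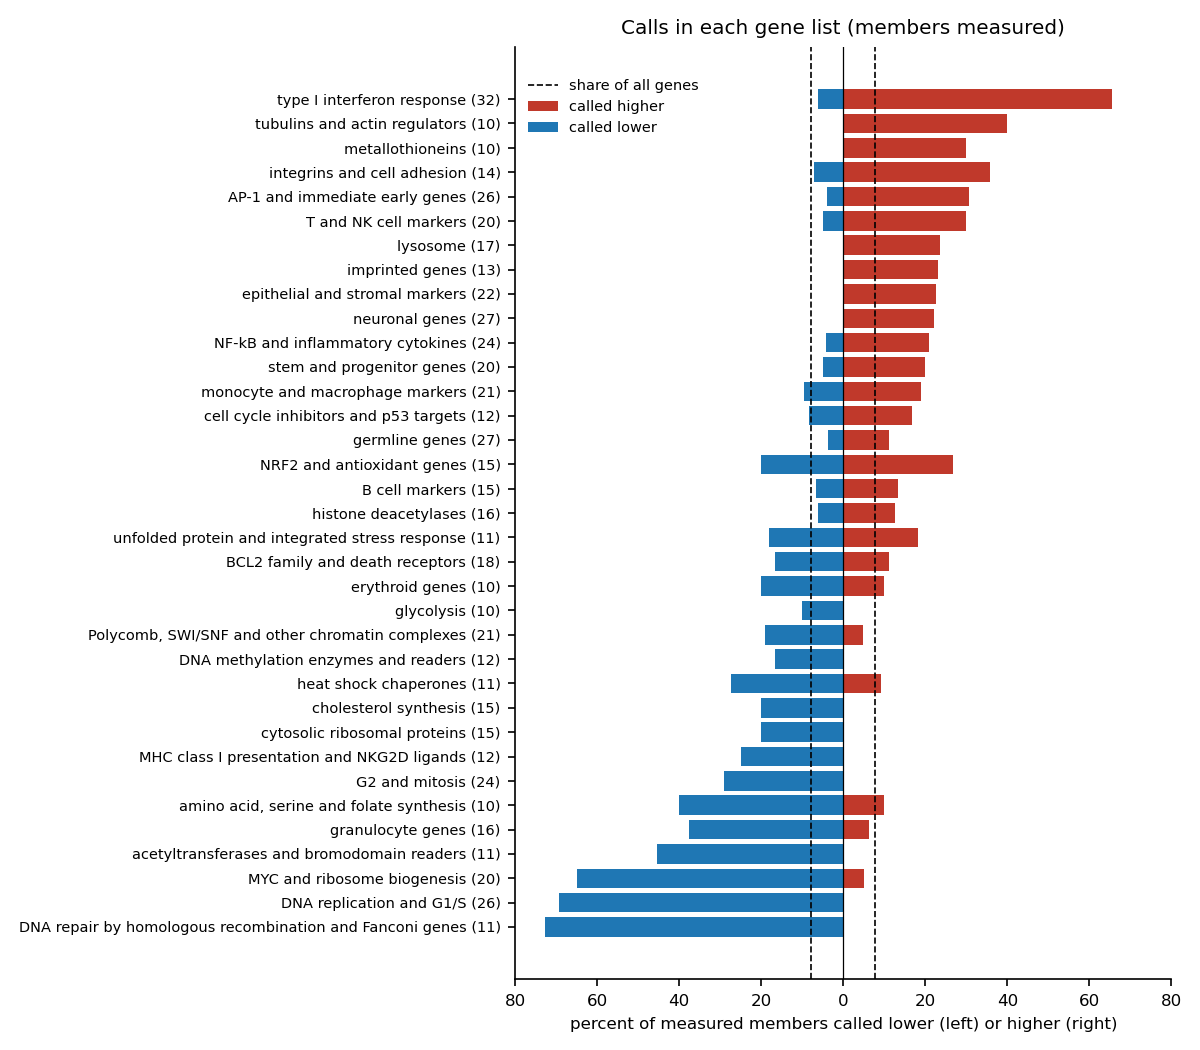
Percent of the measured members of each gene list that were called lower (left, blue) or higher (right, red) when panobinostat was added to decitabine, for lists with at least 10 measured members (number in brackets); dashed lines give the shares of all 14884 genes, 7.91% lower and 7.66% higher. The interferon list (21 of 32 higher) and the lists of recombination repair (8 of 11 lower), DNA replication (18 of 26 lower) and MYC and ribosome biogenesis (13 of 20 lower) reach farthest.

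Myeloid genes moved in both directions. Granule proteins and receptors of granulocytes had 6 of 16 members lower and 1 higher, and the 6 falls held whichever array was left out. Beside PRTN3, the antimicrobial granule protein AZU1 fell from 6.90, 7.16 and 7.50 to 5.70, 5.80 and 5.76 (-1.43, SE 0.19), CSF3R, the receptor of G-CSF, from 6.78, 6.72 and 7.28 to 5.73, 5.30 and 5.34 (-1.47, SE 0.22), and CLC, a galectin of eosinophils and basophils, from 4.69, 4.96 and 5.11 to 3.73, 3.40 and 3.44 (-1.40, SE 0.23). None of these groups overlapped. The control means of these genes were 6.20 for AZU1, 7.31 for CSF3R and 3.83 for CLC. The granule enzymes MPO (-0.97) and CTSG (-1.13) completed the falls, and the chemokine receptor CXCR1 was the rise (0.48), lost without decitabine plus panobinostat replicate 2 (0.31) or 3 (0.51) or decitabine replicate 1 (0.46) or 2 (0.42); these 3 were named after their values were seen.

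Among 21 markers of monocytes and macrophages there were 4 rises and 2 falls, with a median of 0.16. TREM1 led them, and the scavenger receptor CD36 rose from 7.07, 6.89 and 6.67 to 7.47, 7.84 and 7.88 (0.85, SE 0.21). CX3CR1, the fractalkine receptor, was at 7.17, 6.43 and 7.70 and at 7.83, 8.26 and 8.12 (0.97, SE 0.29), but was not called without decitabine plus panobinostat replicate 2 (0.88) or 3 (0.95) or decitabine replicate 1 (1.01) or 2 (0.64). IRF8, a transcription factor of monocyte development, fell from 9.35, 9.30 and 8.79 to 8.54, 7.86 and 8.40 (-0.87, SE 0.22) and was lost without decitabine plus panobinostat replicate 2 (-0.67) or decitabine replicate 1 (-0.77). Without decitabine plus panobinostat replicate 3, decitabine replicate 1 or decitabine replicate 2 the list had 2 members higher. CD14 (0.13), CSF1R (-0.40), CD163 (0.16) and S100A8 (0.00) did not pass. Of 20 stem and progenitor genes 4 were higher and 1 lower: the angiopoietin ANGPT1 (1.14, SE 0.13) and the homeobox gene MEIS1 (0.56, SE 0.13) kept their calls whichever array was left out, while LMO2 (0.52) held only without decitabine plus panobinostat replicate 1 and the fall of the receptor KIT (-1.12) only without decitabine plus panobinostat replicate 3. Without decitabine replicate 1 there were 2 higher. Erythroid genes had 1 of 10 higher, the erythropoietin receptor EPOR (1.13, SE 0.20), and 2 lower, ERMAP (-1.12, SE 0.21) and the factor KLF1 (-0.67, SE 0.15). None of 9 megakaryocyte genes was called in limma.

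Among 20 markers of T and NK cells there were 6 rises and 1 fall, with a median of 0.05 that turned to -0.05 with centred arrays. Perforin, PRF1, which opens pores in target cells, was at 6.18, 6.45 and 6.08 and reached 8.50, 8.56 and 8.50 (2.28, SE 0.26). LAT, an adaptor of T cell receptor signalling, rose from 5.55, 5.69 and 5.52 to 6.91, 7.13 and 6.68 (1.32, SE 0.21), and the adhesion receptor CD2 from 5.45, 4.71 and 4.56 to 5.96, 5.95 and 5.63 (0.94, SE 0.22). NKG7, a cytotoxic granule protein, was the fall, from 6.68, 7.35 and 7.04 to 5.91, 5.81 and 5.46 (-1.29, SE 0.30). CD8A, the only T cell defining marker that was measured, was not called. Of 15 B cell markers CD22 and the glycoprotein CD24 (1.61, SE 0.14) were higher and the kinase BTK was lower (-0.85, SE 0.18).

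Of 27 neuronal genes 6 were higher and none lower, with a median of 0.25. SYT11, a synaptotagmin, rose from 5.26, 5.06 and 5.30 to 7.09, 7.61 and 8.54 (2.54, SE 0.51), with the panobinostat arrays more spread than the decitabine arrays. NPTX2, a secreted pentraxin of synapses, rose from 7.41, 6.20 and 6.93 to 9.48, 8.94 and 9.01 (2.3, SE 0.32). DPYSL3, a protein of growth cones, rose by 1.64 (SE 0.30) and the presynaptic adhesion protein NRXN2 by 1.23 (SE 0.25). Of 22 epithelial and stromal markers 5 were higher and none lower, with a median of 0.06 (-0.04 centred). Junction plakoglobin, JUP, rose from 7.50, 7.71 and 7.52 to 8.53, 8.81 and 8.82 (1.15, SE 0.24) and fibronectin, FN1, from 3.64, 3.49 and 3.49 to 4.37, 4.62 and 4.30 (0.89, SE 0.15). CLDN7 (1.11) and CLDN4 (0.84), claudins of tight junctions, were called in only 1 of 6 fits with an array left out, CLDN7 without decitabine plus panobinostat replicate 1 and CLDN4 without its replicate 3. The list had 3 higher without decitabine plus panobinostat replicate 1 or 2 or any of the decitabine replicates. EPCAM (0.80), the fifth, was named after its value was seen; at 3.55, 3.93 and 3.49 against 4.89, 4.06 and 4.4 it stayed low, and it was lost without decitabine plus panobinostat replicate 1 (0.58).

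Promoters of germline and imprinted genes are often methylated in somatic cells. Of 27 germline genes 3 were higher and 1 lower, against 7.66% higher and 7.91% lower over all genes, with a median of 0.05 (-0.05 centred). The list is thus near the general share. Without decitabine plus panobinostat replicate 2 there were 6 higher. TKTL1, a transketolase-like gene of testis, was at 7.62, 6.52 and 7.14 with decitabine and at 9.56, 8.96 and 9.49 with both drugs (2.24, SE 0.34). The germ cell RNA-binding protein DAZL rose from 6.80, 6.06 and 6.03 to 7.33, 7.30 and 7.11 (0.95, SE 0.22), TEX14, a protein of intercellular bridges, by 1.12 (SE 0.20), and PIWIL4, which binds piRNAs, fell by 1.22 (SE 0.26). None of 7 cancer-testis antigens was called in limma, and their median was 0.06 (-0.05 centred). Of 13 imprinted genes 3 were higher, with a median of 0.07 (-0.03 centred). PEG10 rose from 5.78, 6.01 and 5.42 to 7.32, 7.06 and 6.94 (1.37, SE 0.18). MEG3 (0.86) overlapped between groups and GNAS (0.83) was called in 1 of 6 fits with an array left out, only without decitabine replicate 1. MEG3 was lost without decitabine plus panobinostat replicate 2 (0.74) or 3 (0.82) or decitabine replicate 2 (0.67) or 3 (0.74). With any of these 4 arrays left out, 1 gene of the list was higher. The mean of the probe sets of MEG3 changed by 0.39 and was not called, and its call was also lost with centred arrays (0.76), with quantile normalization again (0.79), and with the replicate block or only the groups in the contrast (0.86 each).

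Immediate early genes, which answer growth and stress signals within minutes, had 8 of 26 members higher and 1 lower, with a median of 0.43, and all 8 rises held whichever array was left out. IER3, which counts among the NF-kB targets too, rose from 6.70, 6.73 and 5.87 to 9.02, 9.08 and 7.92 (2.24, SE 0.32). EGR1, a zinc finger factor, rose from 8.62, 8.25 and 6.95 to 10.37, 10.03 and 9.01 (1.86, SE 0.43), with replicate 3 the lowest of both groups. The phosphatases DUSP5, from 6.19, 6.54 and 6.23 to 8.11, 8.32 and 7.96, and DUSP6, from 9.63, 9.67 and 9.48 to 10.78, 10.74 and 10.71, rose by 1.81 (SE 0.23) and 1.15 (SE 0.09); both switch off MAP kinases. Of 24 NF-kB and cytokine genes 5 were higher and 1 lower, with a median of -0.02. Cyclooxygenase PTGS2 rose from 6.40, 5.22 and 5.02 to 8.20, 7.93 and 7.95 (2.48, SE 0.28), and TRAF1 by 2.86. The chemokine CCL1 (0.73) was lost without decitabine plus panobinostat replicate 1 (0.67) or 2 (0.68) or decitabine replicate 1 (0.70) or 2 (0.69).

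Genes of adhesion, the actin skeleton and lysosomes were mostly higher where they were called. Of 14 integrins and adhesion genes 5 were higher and 1 lower, with a median of 0.05 (-0.05 centred), and 3 were higher without decitabine plus panobinostat replicate 1. The tetraspanin CD9 rose from 3.98, 4.22 and 3.92 to 5.97, 5.24 and 5.30 (1.46, SE 0.18) and the integrin ligand ICAM2 by 0.90 (SE 0.16), while SELPLG, the P-selectin ligand, fell from 8.09, 7.97 and 8.23 to 7.20, 6.90 and 6.65 (-1.18, SE 0.16). CD82 (1.14) was called in 1 of 6 fits with an array left out, without decitabine replicate 2. Of 10 tubulins and actin regulators 4 were higher and none lower, each in every fit with an array left out: gelsolin, GSN, which cuts actin filaments, from 5.05, 5.75 and 5.34 to 6.95, 7.15 and 7.17 (1.71, SE 0.31), the tropomyosins TPM1 (0.78) and TPM4 (0.71), and calponin CNN2 (0.50), whose 2 probe sets averaged 0.29 and were then not called. Of 17 lysosomal genes 4 were higher and none lower. The membrane protein LAMP2 rose from 10.98, 10.92 and 10.87 to 11.50, 12.05 and 12.04 (0.94, SE 0.17), progranulin, GRN, by 0.91 (SE 0.22) and PSAP, the saposin precursor, by 0.70 (SE 0.15). The ceramidase ASAH1 (0.40) was called only without decitabine replicate 3.

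Stress and metabolic lists were divided. HSPA2, a testis-enriched member of the HSP70 family, rose from 4.53, 4.30 and 4.38 to 6.37, 6.10 and 6.56 (1.94, SE 0.15), whereas 3 of the 11 measured chaperones fell: the mitochondrial chaperonin HSPD1 from 9.68, 9.78 and 9.78 to 8.76, 8.44 and 8.08 (-1.32, SE 0.18), HSPH1 by 0.76 and the mitochondrial HSPA9 by 0.56. All 4 held whichever array was left out. Metallothioneins, which bind zinc and copper, had 3 of 10 higher in every such fit and none lower, with MT1E at 6.64, 6.92 and 6.04 and then 8.38, 8.31 and 7.84 (1.64, SE 0.32), MT1H (0.92, SE 0.17) and MT1X (0.60, SE 0.12); their near-identical copies may share probes. Antioxidant genes had 4 of 15 higher and 3 lower, with a median of 0.05 (-0.05 centred). Heme oxygenase HMOX1 rose by 1.10 (SE 0.17), peroxiredoxin PRDX1 by 0.97 (SE 0.16) and SRXN1 by 1.09 (SE 0.29), and glutathione peroxidase GPX1 fell by 0.83 (SE 0.11). SRXN1 was lost without decitabine replicate 2 (1.04) or 3 (0.99), and 1 fall remained without decitabine plus panobinostat replicate 3 or any decitabine replicate.

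In amino acid and folate synthesis 4 of 10 genes were lower and 1 higher. PSAT1, an enzyme of serine synthesis, fell from 10.62, 10.79 and 10.99 to 9.73, 9.79 and 9.94 (-0.98, SE 0.11), while asparagine synthetase, ASNS, rose from 6.84, 6.95 and 6.41 to 7.83, 7.42 and 7.47 (0.84, SE 0.19). CTH (-0.55) overlapped between groups and was lost without decitabine plus panobinostat replicate 1 (-0.62) or 2 (-0.36) or decitabine replicate 1 (-0.53) or 2 (-0.43), and without decitabine plus panobinostat replicate 1 the list had 2 lower. The stress response list had 2 of 11 higher, DDIT4 (0.68, SE 0.12) and SEL1L (0.39), and 2 lower, ATF5 and its relative ATF4 (-0.52); SEL1L was lost without decitabine plus panobinostat replicate 3 (0.34) or decitabine replicate 2 (0.37), and ATF4 without decitabine plus panobinostat replicate 3 (-0.38) or decitabine replicate 1 (-0.47). Cholesterol synthesis had 3 of 15 lower, the kinase MVK (-0.85, SE 0.18), the synthase HMGCS1 (-0.49, SE 0.12) and the isomerase EBP (-0.46, SE 0.11), with a median of -0.34 and 14 negative changes; 5 were lower without decitabine plus panobinostat replicate 2, 6 with a replicate block and 8 with centred arrays. In glycolysis 1 of 10 was lower, GPI (-0.58, SE 0.14), which is near the 7.91% lower over all genes. MHC class I presentation had 3 of 12 lower, the loading factor TAPBP (-0.78), the peptidase ERAP2 (-0.65) and the stress ligand MICB (-0.58), and none higher. The 1 measured gene of MHC class II presentation was not called.

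Deacetylases are the targets of panobinostat and DNA methyltransferases those of decitabine. HDAC11 rose from 4.35, 4.41 and 4.49 to 5.06, 5.38 and 5.28 (0.82, SE 0.16), in every fit with an array left out. HDAC1 was at 11.18, 11.11 and 11.10 and at 11.39, 11.48 and 11.56 (0.34, SE 0.10). HDAC2 was at 8.26, 8.46 and 8.03 and at 7.25, 8.02 and 7.42 (-0.69, SE 0.20). HDAC1 was called in only 1 of 6 such fits, without decitabine plus panobinostat replicate 1, and not with centred arrays (0.24), and HDAC2 was lost without decitabine plus panobinostat replicate 1 (-0.53) or 3 (-0.62) or decitabine replicate 1 (-0.68) or 2 (-0.58). HDAC3 (0.20), HDAC4 (-0.12), HDAC5 (0.44), HDAC6 (-0.12), HDAC7 (0.03), HDAC8 (0.24), HDAC9 (0.36) and HDAC10 (-0.73) did not pass, and the sign of HDAC7 turned with centred arrays (-0.07). HDAC10 passed with centred arrays (-0.83), with quantile normalization again (-0.82) and with genes above the median level or only the groups in the contrast (-0.73 each). HDAC5 passed with quantile normalization again (0.54). Of 16 deacetylases and sirtuins, 2 were higher and 1 lower; with centred arrays 1 was higher and 2 lower. Among methyltransferases DNMT1 fell from 11.07, 11.02 and 11.12 to 10.50, 10.80 and 10.68 (-0.41, SE 0.11) and was lost without decitabine plus panobinostat replicate 1 (-0.33) or decitabine replicate 3 (-0.39). DNMT3A (-0.66, SE 0.35) and DNMT3B (0.41, SE 0.19) did not pass, except DNMT3B without decitabine plus panobinostat replicate 1 (0.61). The other called gene of 12 in that list was the glycosylase MBD4 (-0.36), lost without decitabine plus panobinostat replicate 1 (-0.23) or decitabine replicate 1 (-0.36), 2 (-0.39) or 3 (-0.34).

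Acetyltransferases oppose the deacetylases, and bromodomain proteins bind the acetylated lysines. Their joint list had 5 of 11 measured members lower, all of them acetyltransferases, and none higher, with a median of -0.50. KAT2A (GCN5) fell from 8.57, 8.36 and 8.80 to 7.22, 7.22 and 7.28 (-1.34, SE 0.15; adjusted p 3.84e-05 in limma), and KAT6B from 9.54, 9.66 and 9.37 to 8.98, 8.96 and 9.01 (-0.54, SE 0.11). Both held whichever array was left out. KAT5 (-0.71) was called only without decitabine plus panobinostat replicate 2, and KAT7 (-0.69) was lost without decitabine plus panobinostat replicate 2 (-0.55) or decitabine replicate 1 (-0.66) or 2 (-0.65). The list had 3 lower without decitabine plus panobinostat replicate 3 or decitabine replicate 2, 2 lower without decitabine replicate 1, and 8 lower with centred arrays. Of 21 genes of Polycomb, SWI/SNF and other chromatin complexes 4 were lower and 1 higher. CHD3 (-1.68) held in every fit. ARID1B (-0.76) was lost without replicate 3 of decitabine plus panobinostat (-0.58) or of decitabine (-0.68), and ARID1A (-0.42) and MTA1 (-0.94) held in 1 of 6 fits, ARID1A without decitabine replicate 2 and MTA1 without decitabine plus panobinostat replicate 2. This list had 2 lower without replicate 1 of either group and 1 lower without replicate 3 of either group. None of the 19 linker and replication-independent histone genes of the list was on a named probe set.

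Genes of cell death and cell cycle arrest had few calls, to be read against the shares over all genes given above. The calls went in both directions, but in each list 1 rise and no fall held whichever array was left out. TP53INP1, a p53-induced stress protein, rose from 4.74, 4.11 and 3.82 to 6.95, 5.39 and 6.79 (2.15, SE 0.39), with panobinostat replicate 2 lower than its partners. RBL2, a pocket protein related to RB1, rose by 0.43 (SE 0.12) and the pore-forming BAX changed by -0.50 (SE 0.16). RBL2 was lost without decitabine plus panobinostat replicate 2 (0.35) or decitabine replicate 1 (0.36) or 2 (0.43), and BAX was called only without decitabine plus panobinostat replicate 2. They were 2 higher and 1 lower of 12 in their list. Of 18 members of the BCL2 family and death receptors 2 were higher and 3 lower. The BH3-only protein BMF rose from 4.87, 4.72 and 4.15 to 5.80, 5.69 and 6.44 (1.39, SE 0.28) in every fit with an array left out. BCL2L1 (-0.58), BID (-0.67) and BCL2A1 (0.61) lost their calls without single arrays: BCL2L1 without decitabine plus panobinostat replicate 2 or 3 (-0.53 each) or decitabine replicate 2 (-0.48), BID without replicate 1 (-0.58) or 3 (-0.67) of decitabine plus panobinostat or 1 (-0.56) or 2 (-0.60) of decitabine, and BCL2A1 without replicate 1 (0.40) or 2 (0.63) of decitabine plus panobinostat or 2 (0.57) or 3 (0.53) of decitabine. The list had 1 lower without replicate 1 of either group and 0 lower without decitabine plus panobinostat replicate 3 or decitabine replicate 2. It had 3 higher and 1 lower without decitabine replicate 1, and 5 higher and 1 lower with quantile normalization again.

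Called genes differed by their level in untreated cells. The control arrays did not enter the change itself, but they entered the estimate of the spread and the choice of the brightest probe set. Genes near the bottom of the scale also have little room to be called lower. Genes were split by control level into 4 groups of 3721. In the group with the highest control level (7.57 to 13.00) 21.4% were lower and 8.79% higher. In the lowest group (2.64 to 3.56) 0.322% were lower and 3.82% higher, and in the groups between, 0.887% and 9.03% were lower and 7.87% and 10.2% higher. By chromosome, the share of genes called lower was 14% on chromosome 16, 11.8% on chromosome 20 and 11.4% on chromosome 17, and the share called higher was 10.8% on chromosome 6, against 7.91% and 7.66% over all genes. Protein-coding genes were called more often (8.63% higher, 9.38% lower of 11916) than lncRNAs (5.58% and 2.29% of 1398) or microRNA genes (0.84% and 1.4% of 1072). These shares are descriptions, and no test was made of them.

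Panobinostat alone against control shares no array with the comparison above, but both use the same estimate of each gene's spread. Their calls are therefore not independent, and the share in common does not measure how much of the change needed decitabine. Panobinostat alone called 1100 genes (7.39%), 583 higher (3.92%) and 517 lower (3.47%). Of the 1140 rises over decitabine 359 were also called without it, which is 31.5% of that list and 61.6% of the 583. Of the 1177 falls 355 were shared, 30.2% of that list and 68.7% of the 517. Calls in opposite directions were rare, 3 genes higher with and lower without decitabine and 5 the reverse. Across the 14884 genes, which are not independent replicates, the changes with and without decitabine had a Pearson r of 0.62 and a Spearman rho of 0.49. Of the 583 genes called higher without decitabine 542 had a positive change on top of it, where their median was 0.61 against 0.86, and of the 517 called lower 497 had a negative one (median -0.63 against -0.69). The spread of all changes was larger with decitabine, with an SD of 0.44 against 0.36. CD22 (3.40 without, 3.08 with decitabine) and ADAM28 (3.11 and 2.88) rose by similar amounts either way, with differences of -0.32 (SE 0.37) and -0.23 (SE 0.30). Without control replicate 3 panobinostat alone called 659 genes.

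**Figure D4:**
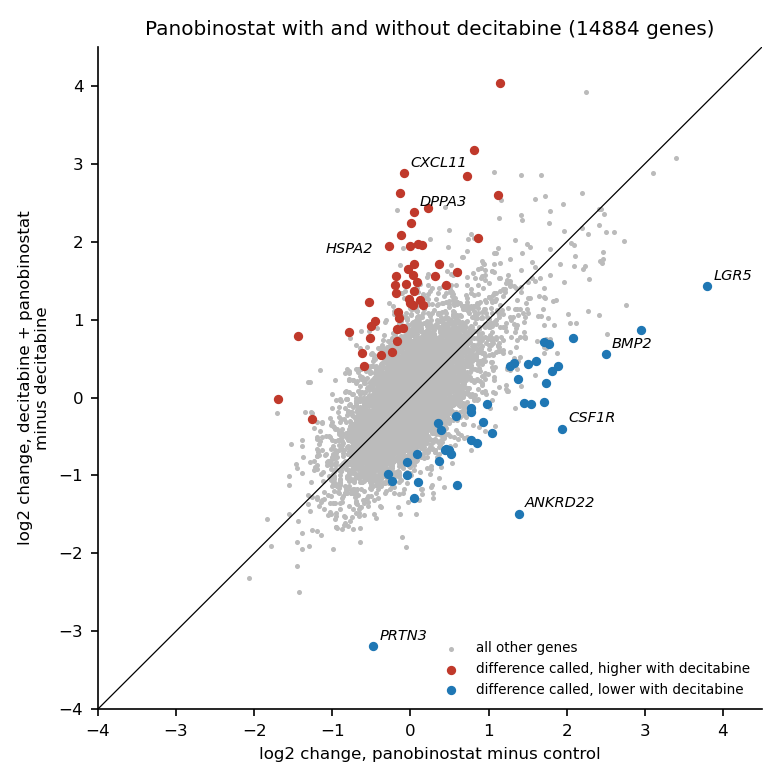
Log2 change with panobinostat in cells without decitabine (horizontal axis, panobinostat minus control) against the change on top of decitabine (vertical axis), 1 point per gene for 14884 genes, with the line of equal change. Coloured points are the 93 genes whose difference was called, 50 with a more positive change in the presence of decitabine (red, above the line) and 43 with a more negative one (blue, below).

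The difference between the change with and the change without decitabine was tested directly. It passed in 93 genes (0.625%), 50 with a more positive change when decitabine was present (0.336%) and 43 with a more negative one (0.289%); at an unadjusted p under 0.05 there were 1562. The count rests on single arrays: it was 46 without control replicate 3, 50 without control replicate 2, 59 without decitabine plus panobinostat replicate 3, 60 without decitabine replicate 3 and 61 without decitabine replicate 2. Of the 50, 47 were called higher over decitabine, 3 were called higher with panobinostat alone and 6 were called lower with it. Of the 43, 28 were called higher with panobinostat alone, of which 8 were also higher over decitabine and 15 were not called there, and 20 were called lower over decitabine.

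Genes without a called rise under panobinostat alone led the group with a more positive change. CXCL11 changed by -0.08 without decitabine and by 2.88 with it, a difference of 2.96 (SE 0.44; adjusted p 0.00462 in limma). DPPA3, a maternal and germ cell factor that protects DNA methylation, had a control mean of 3.40 and a mean of 3.44 with panobinostat; it was at 4.95, 4.06 and 4.01 with decitabine and at 7.02, 6.65 and 6.49 with both drugs, a difference of 2.35 (SE 0.35). HSPA2 had means of 3.85 in control and 3.57 with panobinostat, and its difference of 2.22 (SE 0.21) had the lowest adjusted p of those named here, 0.000193. The 3 calls held whichever of the 12 arrays was left out, as did those of TREM1 (1.48, SE 0.25) and ASNS (1.63, SE 0.27). Unlike the genes before it, TREM1 was called higher with panobinostat alone too, by 1.12 (SE 0.18). ASNS was lower with panobinostat alone, by a change of -0.79, and higher over decitabine, by 0.84.

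Other members of this group were less secure. BCAS1 (2.76, SE 0.51) was not called without control replicate 2 (2.77) or 3 (2.73), decitabine plus panobinostat replicate 3 (2.57) or decitabine replicate 1 (2.49), and TJP3 (2.37, SE 0.44) was not called without control replicate 3 (2.3), decitabine plus panobinostat replicate 3 (2.16), decitabine replicate 1 (2.26) or panobinostat replicate 1 (2.32). DHRS2 (2.89, SE 0.61, adjusted p 0.0424) lost its call whichever of the 12 arrays was left out (differences of 2.76 to 3.05). TKTL1 (2.23, SE 0.48) lost it in 10 of 12, with differences of 1.94 to 2.32 in those, and held only without decitabine plus panobinostat replicate 2 or decitabine replicate 1. ZNF32, a zinc finger protein, fell with panobinostat alone from a control mean of 6.41 to 4.97, and its change over decitabine (0.79) passed only without decitabine replicate 2 (1.07); the difference was 2.23 (SE 0.40) and was lost without control replicate 3 (2.12). In the interferon list the difference was called higher for CXCL11, OASL (1.24), IFI44L (1.87) and XAF1 (1.28) of 32 genes and lower for none; OASL and XAF1 were named after their values were seen. IFI44L held in 5 of 12 fits with an array left out and XAF1 in 2, while CXCL11 and OASL held in all.

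Among the genes with a more negative change in the presence of decitabine, LGR5, a receptor for R-spondins, had means of 4.10 in control and 7.90 with panobinostat, and went from 5.87, 6.57 and 6.42 with decitabine to 7.92, 7.77 and 7.45 with both drugs. Its rise was 3.80 without and 1.43 with decitabine, and the difference was -2.37 (SE 0.34; adjusted p 0.0041 in limma). GLIPR1 rose by 2.95 without and 0.87 with decitabine (difference -2.08, SE 0.31), though its rise with decitabine was lost without decitabine replicate 2 (0.79). The growth factor BMP2 rose by 2.50 without decitabine, and its change of 0.56 with it did not pass (difference -1.94, SE 0.26). That change did pass with genes above the median level (0.56), with quantile normalization again (0.63), with the replicate block (0.56), without decitabine plus panobinostat replicate 3 (0.72) and without decitabine replicate 1 (0.70). All 3 differences passed in each of the 12 fits that leave out 1 array. CSF1R, the receptor of macrophage colony-stimulating factor, rose by 1.94 without decitabine from a control mean of 4.34, and was at 7.17, 6.23 and 6.86 with decitabine and 6.92, 6.30 and 5.82 with both drugs, where the groups overlapped. Its difference was -2.34 (SE 0.42) and was lost without control replicate 2 (-2.28) or 3 (-2.25).

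PRTN3 had a mean of 4.58 in control and of 4.10 with panobinostat alone. Decitabine arrays averaged 7.62 and arrays of both drugs 4.43, and the difference was -2.71 (SE 0.39) in every fit with an array left out. ANKRD22 rose by 1.39 without decitabine and fell by 1.49 with it, from 6.72, 6.65 and 6.34 to 5.23, 5.09 and 4.91, a difference of -2.88 (SE 0.55). It was lost without control replicate 1 (-2.75) or 2 (-2.81), decitabine plus panobinostat replicate 3 (-2.80), decitabine replicate 1 (-2.81) or 2 (-2.85) or panobinostat replicate 1 (-2.77). The fall of ANKRD22 over decitabine was lost without decitabine plus panobinostat replicate 3 (-1.41) or decitabine replicate 1 (-1.42). HOMER2, a synaptic scaffold (-1.71, SE 0.34), held in 5 of 12 fits, and the chemokine receptor CXCR4 (-1.77, SE 0.35), which rose by 1.71 without decitabine and changed by -0.06 with it, held in 3. HOMER2 was lost without control replicate 1 (-1.74) or 2 (-1.58), without decitabine plus panobinostat replicate 1 (-1.74) or 3 (-1.66), without decitabine replicate 2 or 3 (-1.67 each) and without panobinostat replicate 2 (-1.56). CXCR4 held only without decitabine plus panobinostat replicate 1, decitabine replicate 3 or panobinostat replicate 3, and its differences in the other fits ran from -1.85 to -1.61. Levels of LGR5, CSF1R, BMP2 and GLIPR1 were higher with decitabine alone than in control on every array.

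**Figure D5:**
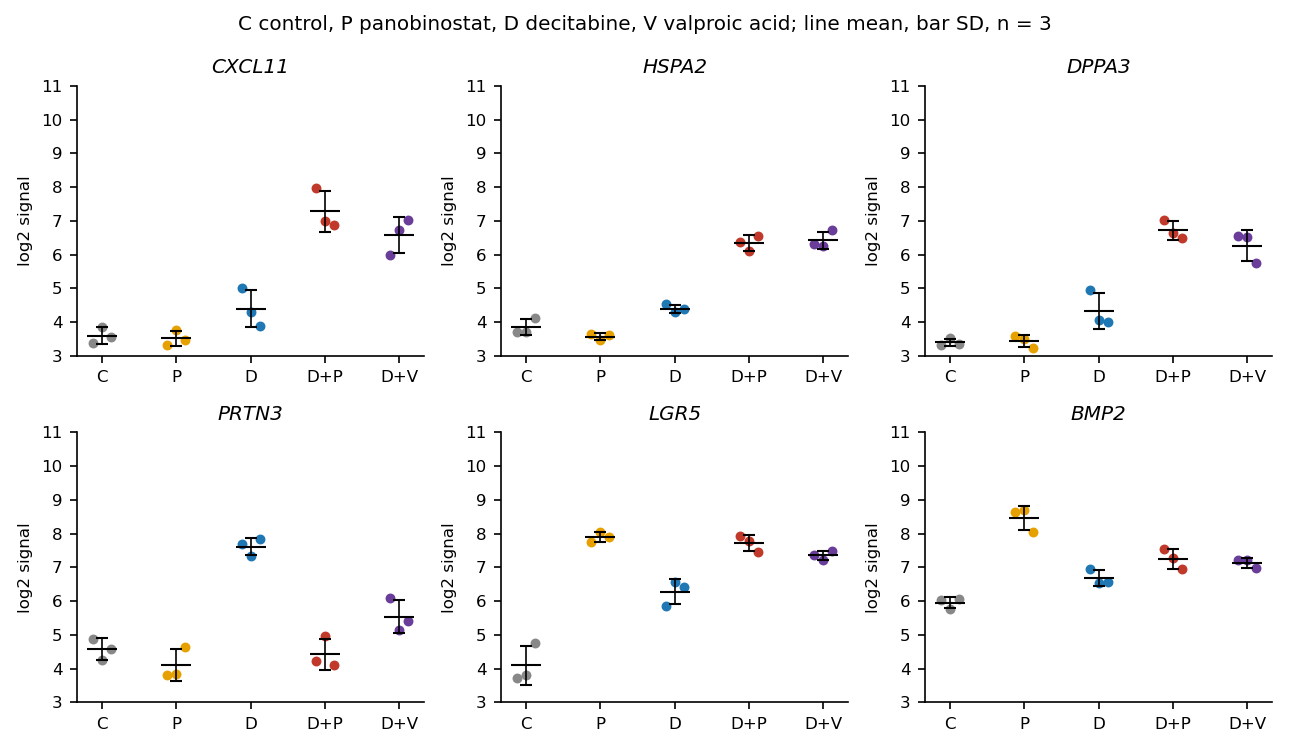
Log2 signal on each array of control (C), panobinostat (P), decitabine (D), decitabine plus panobinostat (D+P) and decitabine plus valproic acid (D+V) for 6 genes whose change with panobinostat differed with and without decitabine; horizontal lines are means and bars SD (n = 3). CXCL11, HSPA2 and DPPA3 stay low with panobinostat alone and rise with both drugs, PRTN3 is high only with decitabine alone among the first 4 groups, and LGR5 (mean 7.90) and BMP2 (8.47) are highest with panobinostat alone.

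Against valproic acid, the other deacetylase inhibitor added to the same decitabine schedule, panobinostat differed in 97 genes (0.652%), with 55 higher (0.37%) and 42 lower (0.282%); 1772 had an unadjusted p under 0.05. The doses carry no unit and were not matched. Of the 55, 54 were also called higher over decitabine, and of the 42, 35 were called lower. These counts depended on the fit and on single arrays: a fit of the 6 arrays alone called 2 genes, and the count was 26 without decitabine plus valproic acid replicate 1, 37 without its replicate 2, 29 without decitabine plus panobinostat replicate 1 and 53 without its replicate 3. PMEL was 1.90 higher with panobinostat (SE 0.31). LAIR2, a secreted collagen-binding immune receptor, was 2.20 higher (SE 0.33), with a mean of 4.55 with valproic acid against 6.49, 7.08 and 6.69 on the panobinostat arrays. CRLF2, a subunit of the receptor for thymic stromal lymphopoietin, was 1.75 higher (SE 0.19), with a mean of 4.97 against 6.81, 6.75 and 6.59. LAIR2 (adjusted p 0.00843 in limma), PMEL (0.0123) and CRLF2 (0.00123) passed in each of the 6 fits without 1 array. LAIR2 and CRLF2 were the genes called in the fit of the 6 arrays alone, where PMEL (1.90) was not.

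The other large differences in favour of panobinostat were CA6 (1.89), CCR7 (1.82), C3 (1.66), IFI44L (1.47) and PPARG (1.46). Replicate 1 of decitabine plus valproic acid was the lowest of its group for CA6 (4.18, 5.22 and 5.96), CCR7 (3.79, 4.63 and 5.37) and C3 (5.0, 6.13 and 6.4). PMEL had the same order there (3.55, 4.76 and 5.14). That array was the lowest of its group for all of the 15 largest rises over decitabine, among them DHRS2 (5.62, 7.57 and 8.22). It was the highest for large falls such as PRTN3 (6.08, 5.14 and 5.4) and LIAT1 (8.78, 8.0 and 7.33). Without that array CCR7 lost its call (1.41), while CA6, C3 and PMEL kept theirs. C3 was lost without decitabine plus panobinostat replicate 3 (1.5) and CA6 without its replicate 1 (1.87). CCR7 held in 3 of 6 fits with an array left out, and IFI44L and PPARG in 2; the lowest differences in the fits without a call were 1.41 for CCR7, 1.25 for IFI44L and 1.17 for PPARG. PPARG, the lipid-sensing nuclear receptor, was at 6.10, 6.08 and 6.05 with decitabine, at 7.63, 8.12 and 8.34 with panobinostat added and at a mean of 6.57 with valproic acid added. In the interferon list 8 of 32 genes were higher with panobinostat than with valproic acid and none lower, in the fit of all arrays. Without decitabine plus valproic acid replicate 1 the count over all genes was 26 against 97. Lower with panobinostat were UNC119 (-1.39), CSF3R (-1.10), MTHFD1L (-1.04), the transcobalamin receptor CD320 (-1.02), NOL6 (-0.98), SLC33A2 (-0.96), the cilium motor subunit DYNC2I2 (-0.94) and EPC1 (-0.93), a subunit of the NuA4 acetyltransferase complex. SLC33A2 held in all 6 fits, DYNC2I2 in 5 (lost without decitabine plus panobinostat replicate 1, -0.86), MTHFD1L in 3, CD320, NOL6 and EPC1 in 2, and UNC119 and CSF3R in 1.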

How the data were processed

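The deposited values were log2 signals per probe set, made with RMA per the submitters' processing notes; background correction, annotation version and filters beyond that are not given in the sources used here. No scanner files were used. Gene symbols came from the platform's probe annotation: 16098 of 48226 probe sets named 1 symbol, 0 named several, and the remaining 32128 are unnamed here. All 18 arrays entered one limma model, group means as its terms (limma 3.58.1, R 4.3.3, 12 residual degrees of freedom), and p-values were adjusted by Benjamini-Hochberg over all 14884 genes, with a threshold of 0.05. The scripts were tested on simulated data with 200 changed genes. The comparison, the gene lists and the rule for naming genes were chosen with earlier results of these data known. Named were the 15 largest called rises and falls of protein-coding genes without overlap, 3 and 3 of other biotypes, up to 4 called members per list, the deacetylases and DNA methyltransferases, and the 8 largest in each direction of the other contrasts; others are said to be chosen after their values were seen. Replicate numbers did not pair arrays: deviations of decitabine and decitabine plus panobinostat arrays of the same number correlated at 0.04, 0 and 0.02. Alternatives were the arrays in the fit, the probe sets, a filter above a level of 3.84, the normalization, the variance model, a replicate block and each array left out. The number of arrays limits the precision.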

Additional observations from a re-analysis of the deposited data

Results flagged for a closer look

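The change with panobinostat differed between cells with and without decitabine in limma's test of the difference. The differences on the log2 scale, with minus without decitabine, were 2.96 for CXCL11, 2.89 for DHRS2, 2.76 for BCAS1, 2.37 for TJP3, 2.35 for DPPA3, 2.23 for TKTL1, 2.23 for ZNF32 and 2.22 for HSPA2. Negative differences were -2.88 for ANKRD22, -2.71 for PRTN3, -2.37 for LGR5, -2.34 for CSF1R, -2.08 for GLIPR1, -1.94 for BMP2, -1.77 for CXCR4 and -1.71 for HOMER2. They were picked as the 8 largest called in each direction among protein-coding genes.

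Among probe sets without a gene symbol, which the comparisons do not use, 1953 passed an adjusted p of 0.05 in limma when panobinostat was added to decitabine. Of these 1118 were higher and 835 lower, and 585 changed by at least 2-fold.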

How the results depend on the processing

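Of the values of named genes under the alternatives, 2955 kept their direction and their side of the threshold, 298 kept the direction but no longer passed, 12 newly passed and 9 turned their sign. The genes called over decitabine numbered 2317, and from 1675 without decitabine replicate 3 to 1861 without decitabine plus panobinostat replicate 2; the other settings gave 1847 to 2633. The replicate block, a pairing of which the data gave little sign, gave 2288 there, 98 for the difference, 118 against valproic acid and 1104 for panobinostat alone. Leaving out single arrays, the difference with and without decitabine (93 genes) ranged from 46 without control replicate 3 to 98 without decitabine plus panobinostat replicate 2; other settings gave 88 to 121, with 105 under the intensity trend and 121 with only the groups in the contrast. Likewise the count against valproic acid (97) ranged from 26 without decitabine plus valproic acid replicate 1 to 109 without its replicate 3. It was 2 in a fit of only the 6 arrays of that contrast, and the other settings gave 94 to 118. With quantile normalization again it split into 63 higher and 35 lower (64.3% against 56.7% higher). Fits of only the groups in the contrast called 1847 genes over decitabine, 905 for panobinostat alone and 121 for the difference. Among the 15 largest rises over decitabine, SDs with valproic acid added exceeded those with panobinostat added for all but CXCL11 (0.53 against 0.60). Examples were PMEL (0.83 against 0.46), CA6 (0.9 against 0.2) and DHRS2 (1.35 against 0.2). Large falls went both ways. The SD with valproic acid was larger for ACY3 (0.75 against 0.14) and smaller for MTHFD1L (0.18 against 0.36) and NOL6 (0.15 against 0.32). Why the count fell to 2 was not tested. Panobinostat alone (1100) ranged without single arrays from 659 without control replicate 3 to 854 without panobinostat replicate 2, and in other settings from 905 to 1261; centred arrays split it into 508 higher and 753 lower (40.3% higher). HDAC7 (0.03) was at -0.07 with centred arrays, at -0.01 with quantile normalization again and at -0.05 to 0.17 without single arrays. CXCR4 over decitabine (-0.06) was at 0.0 with quantile normalization again and at -0.24 to 0.11 without single arrays. Neither gene passed in those fits, and the cause was not tested. Low signal limits what can be seen: among the 3721 genes with the lowest control levels, 12 were called lower.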
